A study of Mus musculus with 92 samples.

Results

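The genes described here are 8 members of the transforming growth factor beta (TGF-beta) pathway, chosen by symbol: the ligand Tgfb1, the receptors Tgfbr1 and Tgfbr2, the signal carriers Smad2, Smad3 and Smad4, the inhibitory Smad7 and the repressor Skil. They are 8 of 29956 named genes measured by bulk RNA sequencing in 92 libraries of mouse myeloid cells. The study compared ER-Hoxb8 cells, a conditionally immortalized progenitor model, with primary bone marrow cells and microglia, in culture and in brain. It then used guide-transduced ER-Hoxb8 cells to ask what targeting of Adar and the JAK inhibitor baricitinib do to macrophages.

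From wild-type FVB bone marrow came BM progenitors (n = 3), BM monocytes (n = 3) and bone marrow-derived (BMD) macrophages after 7 days of culture (n = 3). ER-Hoxb8 cells came from FVB mice heterozygous for Cas9 and were sampled as progenitors (n = 3), at day 4 of differentiation (n = 3) and as macrophages at day 7 (n = 3). An estrogen-dependent Hoxb8 holds these cells as progenitors until estrogen is withdrawn. BMD microglia-like cells (MLCs, n = 6, wild-type donors) and ER-Hoxb8 MLCs (n = 6, genotype given as wild type) were sorted from the brains of Csf1r-/- mice. As newborns, the mice had been injected with bone marrow or ER-Hoxb8 progenitor cells. These hosts lack microglia of their own and are severely affected by the deletion. Among the ER-Hoxb8 MLCs, 3 libraries are named GFPHox (replicates 1 to 3) and 3 WTHox (replicates 4 to 6). Microglia (n = 9) came from uninjected wild-type FVB mice of matched age, and replicates 8 and 9 carry the name YSWT, whose meaning is not given in the sources used here. Exact ages per library are not given either.

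The guide-transduced groups all derive from Cas9 heterozygous ER-Hoxb8 progenitors and are sorted pools, not clones. They are NTC (non-targeting control guide) progenitors (n = 3) and macrophages at day 7 (n = 3), progenitors (n = 3) and macrophages (n = 3) labelled Adar1 KO with sgRNA 1, and progenitors (n = 3) and macrophages (n = 5) labelled Adar1 KO with sgRNA 2. A further 33 libraries are day 7 macrophages grown with 0, 0.0006, 0.016, 0.4 or 10 uM baricitinib, with 3, 3, 4, 4 and 3 NTC libraries and 3, 3, 3, 3 and 4 libraries labelled Adar1 KO (sgRNA 1) at these doses. Doses are given as in the sample titles, and the treatment description gives other numbers for the lowest doses above 0. Where the sources do not say that replicates came from separate animals or cultures, p-values measure only the spread between these samples, which may be technical.

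Values are log2 CPM, with CPM the reads of a gene relative to library size. The libraries fall into 6 sets that each share a lowest value and were normalized apart, and comparisons were made only within a set. If the authors' prior count was 2, that lowest value implies a mean depth of 40.6 M reads (M, mega) for the 12 marrow and early ER-Hoxb8 libraries, 24.5 M for the 27 libraries of macrophages, MLCs and microglia, 21.5 M for 11 sgRNA 1 and NTC libraries, 23.6 M for the 8 sgRNA 2 libraries and 13.7 M for the 33 baricitinib libraries. NTC macrophages replicate 2 stands in a set of its own (17.1 M) and entered no test. A count of 0 allows up to 3 reads, which correspond to between 0.0739 and 0.218 CPM across sets, a bound on counting error only. A gene was called when its Benjamini-Hochberg adjusted p from limma, taken over all genes tested in a set, was under 0.05. Overlap between groups describes the members named, and the share of all genes without overlap is not given.

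TGF-beta binds a receptor complex in which Tgfbr2 activates Tgfbr1, which in turn phosphorylates Smad2 and Smad3, and these enter the nucleus with Smad4 to regulate transcription. Smad7, itself a common transcriptional target of the pathway, blocks the activated receptor, and Skil (SnoN) represses Smad-dependent transcription. In the brain, TGF-beta signalling is known to be needed for the mature state of microglia.

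The labels were first set against marker genes. The summed level of 5 microglia markers, of which P2ry12 or Tmem119 was the most abundant in each library, ran from 25438 to 33082 CPM in microglia, from 1272 to 3956 CPM in BMD MLCs, from 55.6 to 3130.0 CPM in ER-Hoxb8 MLCs and from 3.07 to 135 CPM in cultured macrophages. ER-Hoxb8 MLCs replicate 6 thus lay with the cultured macrophages at 55.6 CPM, and its sum of 3 monocyte markers (Ly6c2, Ccr2, Plac8) was 9972 CPM against 124.6 to 289 CPM in the other 5 libraries. The monocyte sum was 159.9 to 383 CPM in BMD MLCs, 19.8 to 78.1 CPM in microglia, 5.09 to 7.96 CPM in BMD macrophages and 19.02 to 137 CPM in ER-Hoxb8 macrophages. Of the microglia markers, Sall1 had a median at or below 1 CPM in BMD MLCs and in both kinds of cultured macrophage. The sum of 5 neutrophil markers, mostly Ngp, was 7312, 4431, 28533, 32940, 32861 and 31110 CPM in BMD MLCs 1 to 6 and 760, 237, 330, 17827, 41011 and 3345 CPM in ER-Hoxb8 MLCs 1 to 6. In microglia it was 4039, 2879, 1785, 1948, 5847, 1037, 2128, 406 and 544 CPM, and in cultured macrophages it was 37.8 CPM at most; 0 of the 5 markers were at 0 in any of these 27 libraries. Microglia replicate 8 had the lowest microglia sum of its group, with oligodendrocyte markers at 674 CPM (others 16.4 to 61.1), astrocyte markers at 507 CPM (others 169 to 353) and neuron markers at 39.8 CPM (others at most 3.36). In microglia replicate 9 macrophage markers summed to 19051 CPM (others 3311 to 7535). Lymphocyte markers were 107.5 and 31.8 CPM in ER-Hoxb8 MLCs replicates 3 and 6, against 0.53 to 9.47 CPM in the rest of that group. Dissociation genes, mostly Fos or Jun, summed to 16.5, 15.4, 16.02, 15.35, 22.98, 21.9, 82.01, 27.9 and 13.2 CPM in microglia, against 51.2 to 119.8 CPM in BMD macrophages, 34.7 to 69.2 CPM in ER-Hoxb8 macrophages, 32.7 to 163 CPM in BMD MLCs and 65.2 to 307 CPM in ER-Hoxb8 MLCs. What these cells, genes and libraries contribute to the member values was not tested, and in such bulk samples fewer cells of a type and less RNA per cell cannot be told apart.

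**Figure D1:**
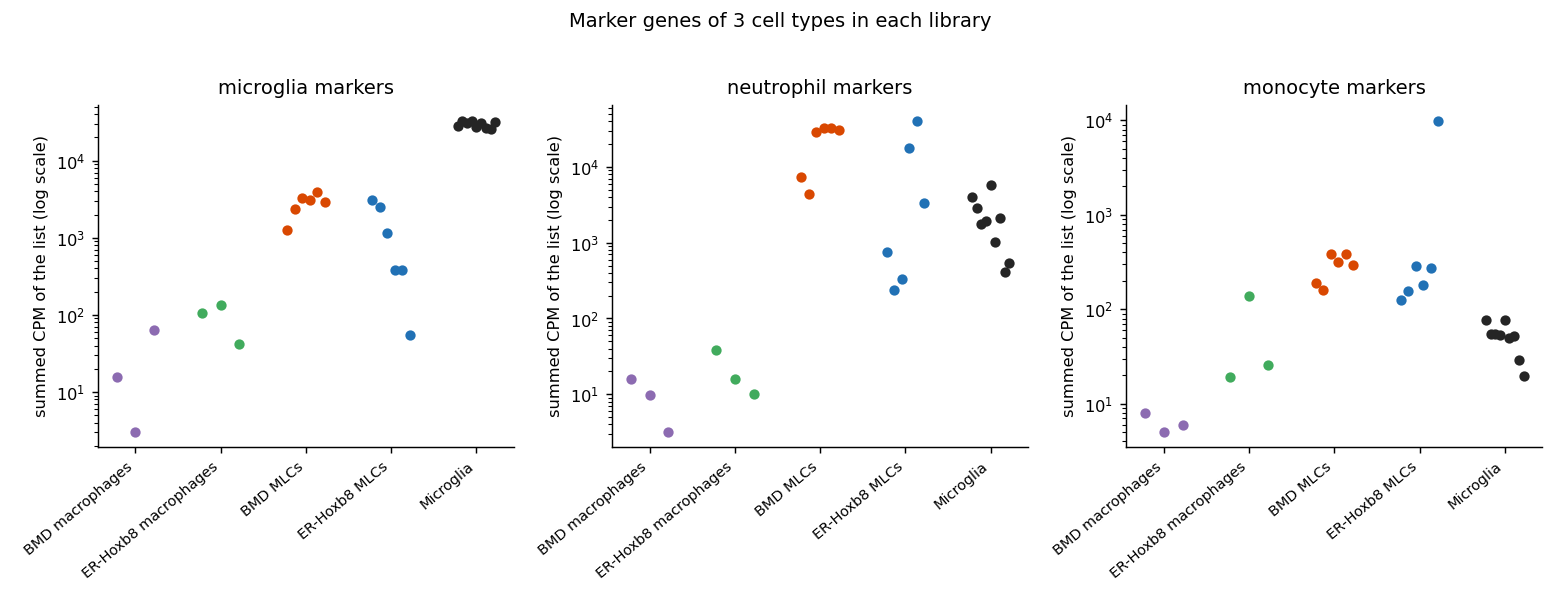
Summed CPM (log axis) of the microglia, neutrophil and monocyte marker lists in each library of cultured macrophages, MLCs and microglia, with 1 point per library. Microglia markers reach 25438 to 33082 CPM in microglia and 55.6 CPM in ER-Hoxb8 MLCs replicate 6, while neutrophil markers reach 41011 CPM in ER-Hoxb8 MLCs replicate 5.

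Tgfb1, the ligand, was low in most libraries. Over all 92 its median was 1.61 CPM, with a range of 0 to 10.8 CPM, and it passed 1 CPM in 64 libraries. In microglia the lowest, median and highest values were -1.32, -0.02 and 1.91 log2 CPM, in BMD MLCs -1.27, -0.06 and 0.78, and in ER-Hoxb8 MLCs -3.62, 0.11 and 0.28. These ranges overlap with each other and with those of BMD macrophages (-0.94, 0.72 and 0.52) and ER-Hoxb8 macrophages (0.01, 0.89 and -0.48), so no order of the 5 groups goes beyond their spread. How well the library type captures this transcript was not tested.

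Tgfbr1 and Tgfbr2, the receptor kinases, behaved differently from each other. Tgfbr1 was 8.27, 8.32 and 8.19 log2 CPM in BMD macrophages, 8.35, 8.22 and 6.76 in ER-Hoxb8 macrophages, 9.89, 10.10 and 10.24 (lowest, median, highest) in BMD MLCs, 6.69, 9.35 and 9.76 in ER-Hoxb8 MLCs and 10.43, 10.87 and 11.21 in microglia. Every microglia library lay above every BMD MLC library, and 5 of the 6 ER-Hoxb8 MLC libraries lay between 9.22 and 9.76, below every BMD MLC library and above every cultured macrophage library. The exception was replicate 6 at 6.69, the library with few microglia marker reads. In CPM, the group medians were 310 and 298 in BMD and ER-Hoxb8 macrophages, 1100 and 654 in the corresponding MLCs and 1870 in microglia. Ordered by mean, microglia (10.86) stood beyond the spread of BMD MLCs (10.07), whereas BMD MLCs, ER-Hoxb8 MLCs (9.00), BMD macrophages (8.26) and ER-Hoxb8 macrophages (7.78) did not each differ from the next by more than their spread.

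Tgfbr2 showed no such steps. BMD macrophages held 7.73, 7.83 and 8.69 log2 CPM, ER-Hoxb8 macrophages 7.67, 7.05 and 7.29, BMD MLCs 7.61 to 8.32 with a median of 7.97, ER-Hoxb8 MLCs 5.68 to 7.77 with a median of 7.06, and microglia 7.14 to 8.44 with a median of 7.66. No neighbours in the order of the 5 group means differed beyond their spread.

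Smad2 and Smad3 are the receptor-activated Smads and Smad4 is their shared partner. Smad3 had its highest levels in microglia, at 3.38, 5.85 and 7.00 log2 CPM (lowest, median, highest), followed by BMD MLCs at 2.29, 4.20 and 5.17. ER-Hoxb8 MLCs ran from -2.57 to 3.89 (median 3.63), BMD macrophages were 2.23, 4.31 and 0.32, and ER-Hoxb8 macrophages 2.63, 0.72 and 3.94. Of the 9 microglia libraries 8 were at 5.07 or more and replicate 8 at 3.38, and 3 of the 9 fell inside the range of the MLCs. The lowest value, -2.57, belonged to ER-Hoxb8 MLCs replicate 4. The mean order placed microglia (5.64) beyond the spread of BMD MLCs (4.09), and BMD MLCs beyond that of ER-Hoxb8 macrophages (2.43), the next in order, but the spread of ER-Hoxb8 MLCs (2.39) and BMD macrophages (2.29) was wider than their distance from BMD MLCs.

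Smad2 varied little. It was 5.46, 5.94 and 6.24 in microglia, 5.29, 5.37 and 5.69 in BMD MLCs, 4.76, 5.54 and 5.99 in ER-Hoxb8 MLCs, 5.40, 5.59 and 5.86 in BMD macrophages and 5.75, 5.55 and 5.24 in ER-Hoxb8 macrophages. Only the step from the microglia mean (5.95) to that of BMD macrophages (5.62) went beyond the spread. Smad4 ranged from 2.36 to 6.45 over the same 27 libraries, and no neighbours among its 5 group means differed beyond their spread.

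Smad7, the inhibitory Smad, was higher in both MLC groups than in any cultured macrophage library. It was 2.83, 2.17 and 3.01 in BMD macrophages and 0.90, 1.88 and 2.03 in ER-Hoxb8 macrophages, but 4.16, 5.04 and 5.75 (lowest, median, highest) in BMD MLCs, 3.57, 4.48 and 5.25 in ER-Hoxb8 MLCs and 5.23, 6.34 and 6.94 in microglia. All 21 brain libraries were above all 6 libraries of cultured macrophages, and 7 of the 9 microglia libraries were above every MLC library. The means ran from 6.23 in microglia through 5.09, 4.42 and 2.67 to 1.60 in ER-Hoxb8 macrophages, and of these steps the 1 between BMD and ER-Hoxb8 MLCs lay within the spread.

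Skil, the nuclear repressor, was also high in brain cells. BMD macrophages held 7.38, 6.01 and 8.83 log2 CPM, ER-Hoxb8 macrophages 5.41, 6.10 and 6.09, BMD MLCs 7.89 to 9.76 (median 8.83), ER-Hoxb8 MLCs 8.50 to 9.99 (median 9.15) and microglia 8.08 to 11.99 (median 9.21). The 3 brain groups overlapped throughout, and the highest value, 11.99, came from microglia replicate 8. BMD macrophages replicate 3 lay inside the range of the brain libraries, whereas the ER-Hoxb8 macrophages lay below all of them. The 3 brain means (9.55, 9.21 and 8.87) did not differ beyond their spread, and those of BMD (7.41) and ER-Hoxb8 macrophages (5.87) each stood beyond the spread of the group above.

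**Figure D2:**
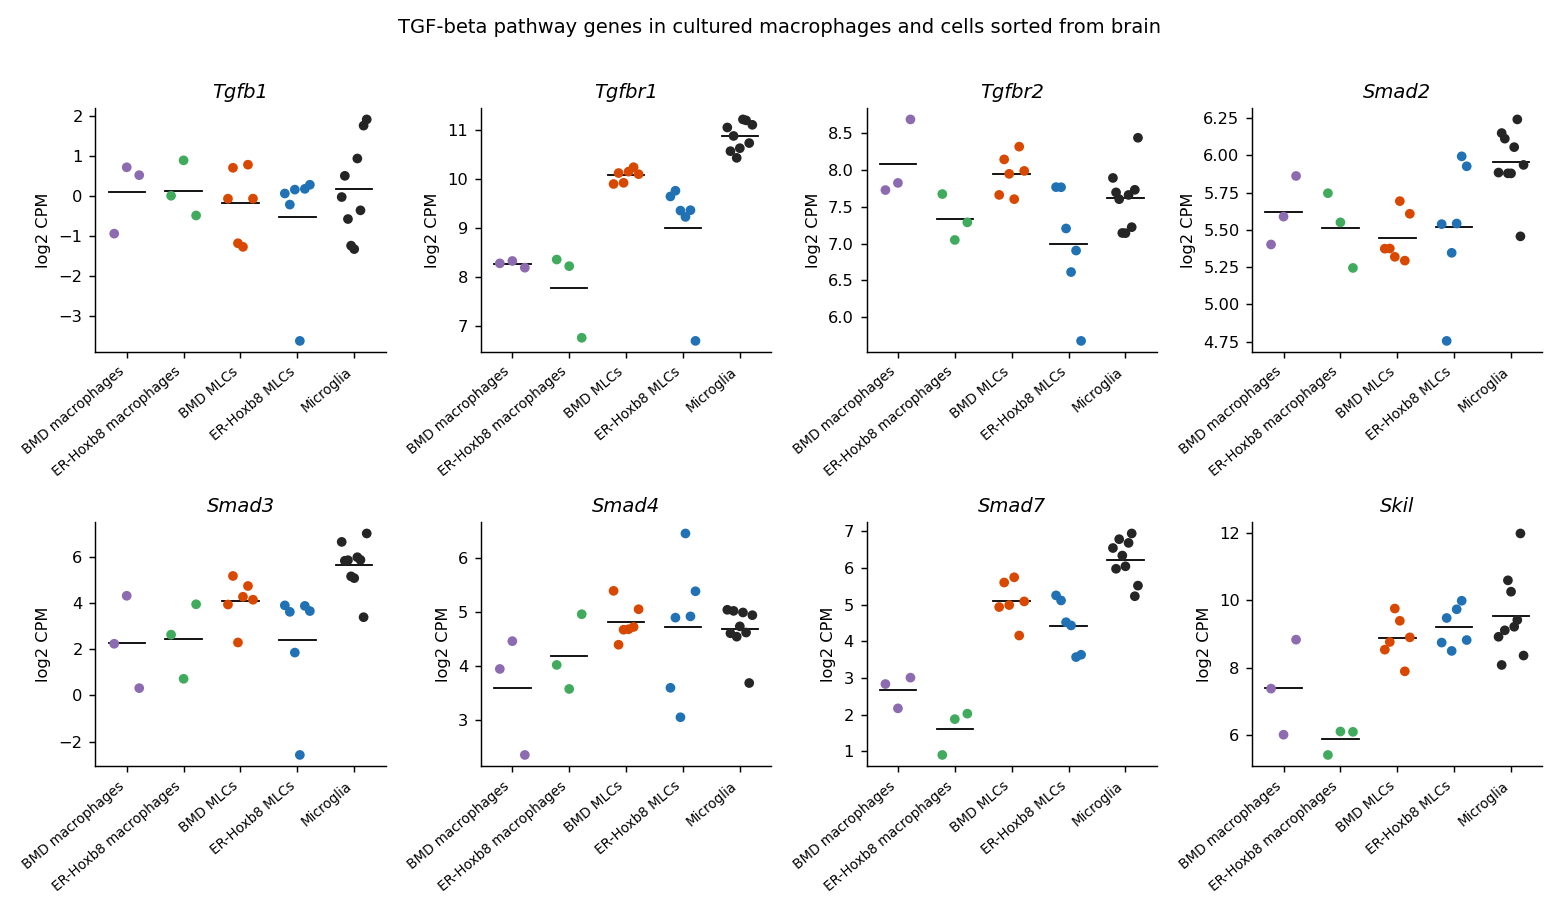
Level of each of the 8 members (log2 CPM) in every library of BMD and ER-Hoxb8 macrophages, BMD and ER-Hoxb8 MLCs and microglia, with 1 point per library and a black bar at the group mean. Smad7 separates all 21 brain libraries from the 6 cultured macrophage libraries, and Tgfbr1 lies at 10.43 to 11.21 in microglia.

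Over these 27 libraries Tgfbr1 moved most closely with Smad7 among the members (Spearman rho 0.883) and with Smad3 (0.773), and Smad3 with Smad7 at 0.728, while Tgfbr1 and Tgfbr2 gave 0.188. The points share libraries and fall into groups, so these coefficients describe the group pattern. Of the 4 members with promoter sequence in the RefSeq tables (GRCm38.p6), Tgfbr1, with 2 annotated windows, and Smad3 are shown because they moved together; the promoters of Tgfb1 and Tgfbr2 were searched as well, and those of Smad2, Smad4, Smad7 and Skil were not used here. Each window spans 300 bases around a start site and is written 5′ to 3′ on the strand of the gene: Tgfbr1 at chr4:47352972-47353271 and chr4:47385966-47386265 on the plus strand and Smad3 at chr9:63757945-63758244 on the minus strand. Capitals mark CAGAC, a short element that Smad3 and Smad4 are known to bind.
Tgfbr1 first window: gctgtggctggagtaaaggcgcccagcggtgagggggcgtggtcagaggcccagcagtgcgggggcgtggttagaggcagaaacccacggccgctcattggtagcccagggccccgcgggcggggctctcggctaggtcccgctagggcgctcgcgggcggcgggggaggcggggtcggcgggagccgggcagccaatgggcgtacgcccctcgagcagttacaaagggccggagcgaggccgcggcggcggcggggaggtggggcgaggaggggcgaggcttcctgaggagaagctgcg
Tgfbr1 second window: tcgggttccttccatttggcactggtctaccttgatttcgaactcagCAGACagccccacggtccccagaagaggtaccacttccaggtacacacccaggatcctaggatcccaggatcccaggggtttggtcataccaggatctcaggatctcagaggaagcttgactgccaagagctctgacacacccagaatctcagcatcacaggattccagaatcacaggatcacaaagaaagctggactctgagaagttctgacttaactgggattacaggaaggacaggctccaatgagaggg
Smad3: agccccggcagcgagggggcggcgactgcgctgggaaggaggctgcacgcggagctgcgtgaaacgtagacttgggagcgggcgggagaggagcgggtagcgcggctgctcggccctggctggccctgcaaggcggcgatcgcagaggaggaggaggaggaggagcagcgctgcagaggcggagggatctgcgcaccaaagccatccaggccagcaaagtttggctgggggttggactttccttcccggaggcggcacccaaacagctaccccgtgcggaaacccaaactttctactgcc

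CAGAC, which reads as GTCTG on the other strand, occurred in 49.6% of all 32851 promoter windows of the same length, and GTCTAGAC, a palindrome searched apart from it, in 0.213%. The second Tgfbr1 window held 1 CAGAC, at position 48, and the Tgfbr2 window (chr9:116175314-116175613, minus strand) 1 at position 91. The first Tgfbr1 window, the Smad3 window and the Tgfb1 window (chr7:25686752-25687051, plus strand) held none, and none of the 5 windows held the palindrome. The GC content was 74.7% and 52% in the Tgfbr1 windows, 67.7% in that of Smad3, 77% in that of Tgfb1 and 59% in that of Tgfbr2, with a median of 52.7% over all windows. A match describes letters in a window, and nothing about binding was measured.

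Microglia against cultured macrophages asks how far the cultured cells are from the resident cells of the brain. Microglia were sorted from brain and cultured macrophages lysed in the dish, and this preparation cannot be told apart from the cell type. Relative to BMD macrophages, Tgfbr1, Smad3, Smad7 and Skil were higher in microglia, and the other 4 members were not called. Thus 4 of 8 members passed, against 40.8% of the 12518 genes tested, and the median log2 fold change of the members was 1.62 beside -0.06 over all genes. Against ER-Hoxb8 macrophages the same microglia libraries gave 4 of 8 calls, against 42.2% of genes, with medians of 1.79 and -0.06. In both cases the count is close to the share of all genes, and the comparisons share their microglia libraries.

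Smad7 differed by 3.56 log2 units from BMD macrophages (SE 0.41, limma adjusted p = 1.27e-07) and by 4.63 from ER-Hoxb8 macrophages (adjusted p = 9.3e-10), with 9 of 9 microglia libraries above all 3 of each. Tgfbr1 differed by 2.60 (SE 0.41, limma adjusted p = 1.71e-05) and 3.09 (adjusted p = 1.17e-06), again without overlap. Skil was 2.14 higher than in BMD macrophages (SE 0.60, limma adjusted p = 0.00586), where the groups overlapped, and 3.68 higher than in ER-Hoxb8 macrophages (adjusted p = 2.09e-05), where they did not. Smad3 was 3.35 and 3.21 higher (SE 1.03, limma adjusted p = 0.0111 and 0.0139), with overlap in each case. Smad4 missed the threshold against BMD macrophages (1.10, limma adjusted p = 0.0807), while Tgfb1, Tgfbr2 and Smad2 differed by 0.08, -0.47 and 0.34 (adjusted p = 0.944, 0.269 and 0.232). The calls of Smad3 and Skil rested on single macrophage libraries: without BMD macrophages replicate 3 the Smad3 difference was 2.37 (limma adjusted p = 0.133), without ER-Hoxb8 macrophages replicate 2 it was 2.35 (0.13), and without BMD macrophages replicate 2 that of Skil was 1.44 (0.0938). Smad4 passed over BMD macrophages without BMD macrophages replicate 2 (1.53, limma adjusted p = 0.0406) or microglia replicate 8 (1.22, 0.0452). Smad2 passed over BMD macrophages after median centring (0.55, limma adjusted p = 0.0497) or quantile normalization (0.61, 0.0254), as did Smad4 (1.31, 0.0398, and 1.29, 0.0355), and Smad2 passed over ER-Hoxb8 macrophages as well (0.62, 0.0265, and 0.69, 0.0122).

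Other genes of the pathway moved in both directions, and their counts stand beside 40.8% of all genes called against BMD macrophages and 42.2% against ER-Hoxb8 macrophages. Of the 12 negative regulators tested, 6 were higher and 1 lower in microglia than in BMD macrophages, among them Pmepa1 (4.98 log2 units), Tgif2 (3.21) and Tgif1 (-2.09). Of 8 further receptors of the family, 4 were higher and 1 lower, with Bmpr1a at 6.19 and Acvr1b at -2.32. The next list, called latency genes below, holds genes for latency and activation of the ligand and also the ligand Tgfb3. Of its 9 genes tested, 2 were higher (Itgb3, 2.18, and Ltbp1, 1.65). The 1 lower gene was Tgfb3, which was at the floor in microglia and at least 7.55-fold lower. None of 5 other Smads and cofactors was called. Of 10 genes known as TGF-beta targets in many cell types, 1 was higher, Ski (1.73), which is also counted among the negative regulators, and 5 were lower, led by Id3 (-9.54) and Bhlhe40 (-6.57). The target list does not say whether the pathway raises or lowers each gene. Counts of higher and lower targets, here and below, therefore do not measure output of the pathway. Against ER-Hoxb8 macrophages the counts of higher and lower genes were 5 and 1 of 12 negative regulators, 4 and 1 of 8 receptors, 3 and 0 of 9 latency genes, 2 and 0 of 5 Smads and cofactors, and 2 and 3 of 10 targets. There Pmepa1 was at least 626-fold higher, Eng was 6.52 and Smad1 5.04 log2 units higher, and Bhlhe40 (-7.09) and Klf10 (-5.06) were lower.

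MLCs were then set against the cultured macrophages of the same origin. The injected cells were progenitors, so day 7 macrophages are not the state of these cells before engraftment. MLCs were also dissociated and sorted from brain, while cultured macrophages were lysed in the dish. Residence in brain and preparation of the cells therefore cannot be told apart. In ER-Hoxb8 cells the comparison also changes the label of the donor line, from Cas9 heterozygous in culture to wild type with GFPHox or WTHox names in brain, and these cannot be told apart. In BMD cells, Smad7 and Tgfbr1 were higher in brain, at 2.42 (SE 0.43, limma adjusted p = 0.000162) and 1.81 log2 units (SE 0.44, adjusted p = 0.00284), with 6 of 6 MLC libraries above all 3 macrophage libraries. These were 2 of 8 members, against 30.6% of genes, with a member median of 1.35 beside -0.01 over all genes. Skil (1.47, limma adjusted p = 0.0806), Smad4 (1.23, 0.0797) and Smad3 (1.80, 0.214) pointed upward without passing. Skil passed without BMD macrophages replicate 3 (2.18, limma adjusted p = 0.0277) or under quantile normalization (1.91, 0.0165), and Smad4 without BMD macrophages replicate 2 (1.67, 0.043). The neutrophil markers in BMD MLCs, 4431 to 32940 CPM against 16.02 CPM at most in BMD macrophages, and the monocyte markers moved with this comparison, and their part in it was not tested.

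In ER-Hoxb8 cells, 3 of 8 members were higher in brain, against 34.8% of genes: Skil by 3.34 (SE 0.63, limma adjusted p = 0.000268), Smad7 by 2.82 (SE 0.43, adjusted p = 1.85e-05) and Tgfbr1 by 1.23 (SE 0.44, adjusted p = 0.0308). Skil and Smad7 did not overlap between the groups. Tgfbr1 did, through MLC replicate 6 alone, which at 6.69 lay below all 3 macrophage libraries. Its call was lost without ER-Hoxb8 macrophages replicate 3 (0.72, limma adjusted p = 0.258), without MLC replicates 1 (1.10, 0.0566), 2 (1.08, 0.0639) or 5 (1.16, 0.0542), without the filter on low values (1.23, 0.0514) and in the WTHox libraries alone (0.65, 0.289), where Smad4 (1.40, 0.0278) and Tgfbr2 (-0.94, 0.0366) passed. The member median was 0.27, beside -0.15 over all genes. Neutrophil markers were 237 to 41011 CPM in ER-Hoxb8 MLCs against 37.8 CPM at most in ER-Hoxb8 macrophages. Lymphocyte markers were 0.53 to 107.5 CPM against 0.19 CPM at most. Both moved with this comparison, and their part in it was not tested. In the test of whether the difference between MLCs and macrophages varied with origin, limma called 0 of 8 members, against 3.28% of genes. At an unadjusted p under 0.05 there was 1 member, with 1920 genes. It was Skil, whose difference was 1.87 log2 units larger in ER-Hoxb8 cells (95% interval 0.03 to 3.72, limma adjusted p = 0.316). Without BMD macrophages replicate 3 the Skil effect in BMD cells was 2.18, against 1.47 with all libraries, so the Skil difference between the origins is then smaller. The member median of the interaction was -0.30 beside -0.20.

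The counts of other pathway genes in MLCs over macrophages stand beside 30.6% of all genes called in BMD and 34.8% in ER-Hoxb8 cells. Pmepa1, a feedback inhibitor of Smad activation, was the shared example among the negative regulators, of which 4 of 12 were higher in BMD MLCs and 3 of 12 in ER-Hoxb8 MLCs, with 0 lower in each. It was 5.27 log2 units higher in BMD MLCs and at least 59.2-fold higher in ER-Hoxb8 MLCs, and Ppm1a (2.11) and Smurf2 (1.70) were further examples in the respective origin. Latency genes were higher for 2 and lower for 2 of 9 in BMD MLCs (Thbs1, 3.44; Ltbp1, 2.11) and higher for 2 and lower for 1 of 9 in ER-Hoxb8 MLCs (Ltbp1, 2.75; Tgfb3, at least 11.1-fold). Receptors were higher for 3 and lower for 1 of 8 in BMD MLCs (Bmpr1a, 2.99; Acvr1b, -2.52) and higher for 3 and lower for 2 of 8 in ER-Hoxb8 MLCs (Tgfbr3, -4.25). None of the 5 other Smads and cofactors was called in either. Of 10 targets, 1 was higher and 4 lower in BMD MLCs (Id3, -10.26; Bhlhe40, -3.09), and 2 were higher and 1 lower in ER-Hoxb8 MLCs (Tgfbi, 5.30; Bhlhe40, -4.24). By the interaction test, beside 3.28% of all genes, Tgfb3 (6.50), Id3 (8.57) and Id2 (3.56) differed between the origins.

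MLCs against microglia ask how close the engrafted cells came. Border macrophage markers, mostly Mrc1, moved with these comparisons: 2252, 1492, 2145, 1755, 1827 and 2144 CPM in BMD MLCs and 873, 1002, 143, 719, 137 and 2.54 CPM in ER-Hoxb8 MLCs, against 9.93 to 101 CPM in microglia, 217 to 317 CPM in BMD macrophages and 52.99 to 691 CPM in ER-Hoxb8 macrophages, and their part was not tested. Members were lower in MLCs wherever they were called. In BMD MLCs these were Smad7 at -1.14 (SE 0.32, limma adjusted p = 0.0105) and Smad2 at -0.51 (SE 0.18, adjusted p = 0.0398), both with overlap, or 2 of 8 against 20.5% of genes, with a member median of -0.59 beside 0.06. Tgfbr1 was lower in 6 of 6 libraries, by -0.80, without passing (limma adjusted p = 0.0871), and passed after median centring (-0.94, 0.0313). The Smad2 call was lost on leaving out any of BMD MLC replicates 1, 2, 3 and 5 or microglia replicates 1, 2, 3, 6, 7 and 9, at differences of -0.52 to -0.48, and with the replicate block (-0.55, limma adjusted p = 0.0541).

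In ER-Hoxb8 MLCs 3 of 8 members were lower than in microglia, against 33.9% of genes: Smad3 at -3.26 (SE 0.81, limma adjusted p = 0.00254), Tgfbr1 at -1.86 (SE 0.32, adjusted p = 5.81e-05) and Smad7 at -1.81 (SE 0.32, adjusted p = 6.81e-05). Tgfbr1 did not overlap and the other 2 did. Smad3 was -2.57 log2 CPM in ER-Hoxb8 MLCs replicate 4, against 1.85 to 3.89 in the rest of that group. The Smad3 difference is therefore smaller without this library. Tgfbr2 (-0.63, limma adjusted p = 0.0684) and Smad2 (-0.44, 0.0573) missed the threshold, and the member median was -0.66 beside -0.10. Tgfbr2 passed without ER-Hoxb8 MLCs replicate 1 (-0.78, limma adjusted p = 0.0249) or 2 (-0.78, 0.026), and Smad2 without ER-Hoxb8 MLCs replicate 5 (-0.53, 0.0255) or 6 (-0.52, 0.0301) or microglia replicate 8 (-0.50, 0.0196), without the YSWT libraries (-0.51, 0.0249) or under quantile normalization (-0.48, 0.0298). Smad2 also passed in the GFPHox libraries alone (-0.74, limma adjusted p = 0.00674) and Tgfbr2 in the WTHox libraries alone (-1.22, 0.00176). Both comparisons share the microglia libraries.

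Leaving out ER-Hoxb8 MLCs replicates 4 and 6 and microglia replicate 8 together, a choice made after seeing the data, gave 4 calls in BMD MLCs, where Tgfbr1 (-0.81, limma adjusted p = 0.00362) and Smad3 (-1.83, 0.0175) then passed. In ER-Hoxb8 MLCs it also gave 4 calls, with Tgfbr1 at -1.35 and Smad2 at -0.61 (limma adjusted p = 0.011). Against BMD macrophages it gave 5 calls for microglia, with Smad4 at 1.22 (0.015), against ER-Hoxb8 macrophages 5 calls with Smad2 at 0.50 (0.043), and Tgfbr1 in ER-Hoxb8 MLCs over their macrophages was then 1.75 (4.81e-05). Calls over all genes rose as well, from 2562 to 3277 in BMD and from 4245 to 4690.0 in ER-Hoxb8 MLCs over microglia, from 5110.0 to 6002 and from 5279 to 6194 in microglia over BMD and ER-Hoxb8 macrophages, and from 4362 to 5205 in ER-Hoxb8 MLCs over their macrophages.

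Of the other pathway genes, beside 20.5% of all genes called in BMD and 33.9% in ER-Hoxb8 MLCs, BMD MLCs differed from microglia in 1 higher and 1 lower of 9 latency genes (Itgb3, -4.47), 0 and 2 of 8 receptors (Tgfbr3, -4.95; Bmpr1a, -3.20), 0 of 5 Smads and cofactors, 1 and 2 of 12 negative regulators (Tgif1, 1.69) and 4 and 0 of 10 targets (Klf10, 3.55; Bhlhe40, 3.48). ER-Hoxb8 MLCs differed in 1 and 2 of 9 latency genes (Itgb3, -5.41; Tgfb3, at least 11.1-fold higher), 1 and 3 of 8 receptors (Eng, -5.53), 0 and 3 of 5 Smads and cofactors (Smad1, -3.73), 1 and 4 of 12 negative regulators (Pmepa1, -3.38) and 5 and 1 of 10 targets (Id1, 3.20; Bhlhe40, 2.86).

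**Figure D3:**
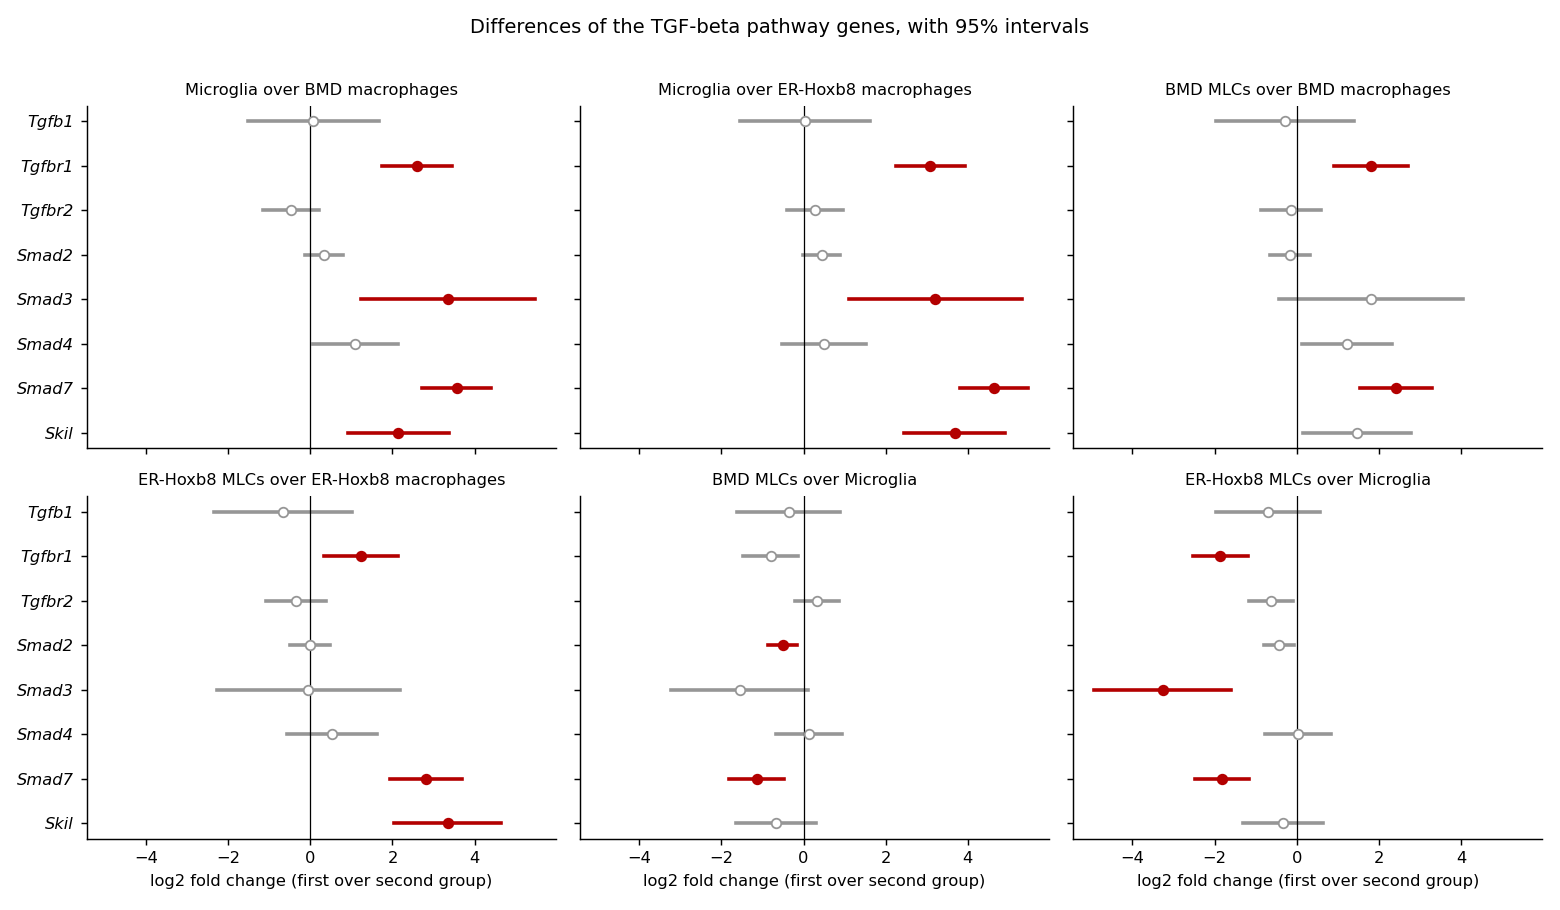
Log2 fold change of the 8 members with 95% intervals in 6 comparisons among microglia, MLCs and cultured macrophages, with filled red points for calls and open grey points for the rest. Smad7 is called in each, from 4.63 in microglia over ER-Hoxb8 macrophages to -1.81 in ER-Hoxb8 MLCs over microglia.

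The origins were then compared directly. Between ER-Hoxb8 and BMD macrophages limma called 0 of 8 members, against 1.96% of genes, and at an unadjusted p under 0.05 there were 2 members, Skil (-1.54) and Smad7 (-1.07), and 1071 genes. BMD macrophages replicate 3 had the highest Skil of its group, and without it the Skil difference is smaller. The member median was -0.29 beside 0.00. Between ER-Hoxb8 and BMD MLCs, Tgfbr1 (-1.06, SE 0.36, limma adjusted p = 0.0428, 6 of 6 libraries below) and Tgfbr2 (-0.95, SE 0.29, adjusted p = 0.0249, with overlap) were lower, 2 of 8 against 15.2% of genes, with a member median of -0.50 beside -0.22. Both calls were lost without ER-Hoxb8 MLCs replicate 6 (-0.60, limma adjusted p = 0.0719, and -0.69, 0.0674), without BMD MLCs replicate 2 (-1.05, 0.0724, and -0.91, 0.0531) and without BMD MLCs replicate 5 (-1.03, 0.0784, and -0.88, 0.0604). That of Tgfbr1 was also lost without BMD MLCs replicates 1, 3, 4 or 6, at similar differences of -1.10 to -1.05, and without the filter on low values (-1.06, limma adjusted p = 0.07). Neither passed after median centring (-0.90, limma adjusted p = 0.0762, and -0.79, 0.0567) or without the 3 libraries named above (-0.54, 0.108, and -0.53, 0.138). In the GFPHox libraries alone neither passed (-0.49, limma adjusted p = 0.253, and -0.36, 0.439), and in the WTHox libraries alone Smad7 passed as well (-1.21, 0.0422).

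Among the other pathway genes, beside 1.96% of all genes called between the macrophages and 15.2% between the MLCs, ER-Hoxb8 macrophages differed from BMD macrophages in 0 of 9 latency genes, 1 higher and 1 lower of 8 receptors (Bmpr1a, 5.84; Eng, -5.40), 1 lower of 5 Smads and cofactors (Smad1, -3.64), 1 lower of 12 negative regulators (Pmepa1, at least 18.3-fold) and 1 lower of 10 targets (Id3, -6.42). ER-Hoxb8 MLCs differed from BMD MLCs in 1 higher of 9 latency genes (Tgfb3, 3.33), 1 lower of 8 receptors, 2 lower of 5 Smads and cofactors (Smad1, -2.85), 1 lower of 12 negative regulators (Pmepa1, -3.67) and 2 higher of 10 targets (Cdkn1a, 2.66).

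For each member, the 3 genes whose levels ran closest to it over the 27 libraries are given as a description. For Tgfbr1 they were Gm28035, Nuak1 and Usp2 (Spearman rho 0.955, 0.953 and 0.947), for Skil Arglu1, Myef2 and 8030462N17Rik (0.951, 0.942 and 0.929), for Smad7 Lppr4, Sparc and Col27a1 (0.923, 0.920 and 0.918) and for Smad3 Gm9864, Zfp703 and Usp35 (0.880, 0.871 and 0.867). The closest were weaker for Smad2 (Mmp28, Bpgm and Zfp706, 0.775, 0.763 and 0.759), Tgfbr2 (Thada, Pgrmc1 and Hs3st1, 0.748, 0.719 and 0.702), Tgfb1 (Fbf1, Ubxn6 and Slc41a3, 0.709, 0.672 and 0.659) and Smad4 (Cry1, Arrdc3 and Zer1, 0.697, 0.679 and 0.676). Smad7 and Skil gave 0.558 with each other, and Smad2 and Smad3 0.524.

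In the marrow set the receptors were low in primary cells and variable in ER-Hoxb8 progenitors. Tgfbr1 was 4.49, 4.76 and 4.77 log2 CPM in BM progenitors, 5.19, 5.94 and 4.69 in BM monocytes, 4.37, 7.47 and 4.67 in ER-Hoxb8 progenitors and 7.68, 7.31 and 7.10 at day 4. Tgfbr2 was 3.33, 4.07 and 3.83, then 3.81, 4.14 and 3.93, then 5.76, 6.78 and 3.21, and 7.24, 6.40 and 5.26 in the same groups. ER-Hoxb8 progenitors replicate 2 thus lay at the level of day 4 cells for Tgfbr1, while replicate 3 had Tgfbr2 at the level of BM progenitors. The labels fit the markers unevenly: 4 progenitor markers summed to 64.2, 28.5 and 2764 CPM in ER-Hoxb8 progenitors, against 6698, 13686 and 15622 in BM progenitors and 34.6, 40.5 and 37.7 at day 4, and 5 macrophage markers to 2084, 4680 and 450 CPM in ER-Hoxb8 progenitors against 136, 222 and 194 in BM progenitors. BM monocytes still held 5042, 6100 and 7930 CPM of progenitor markers, mostly Mpo, beside 3026, 2909 and 3662 CPM of monocyte markers. Neutrophil markers, mostly Ngp, were 479, 9079 and 4075 CPM in BM monocytes and 288, 9688 and 4268 CPM in BM progenitors, against 55.5 CPM at most in ER-Hoxb8 cells of this set. Platelet markers, mostly Ppbp, were 174, 425 and 527 CPM in BM progenitors and 2030.0, 1032 and 103 CPM in BM monocytes against 7.49 CPM at most in ER-Hoxb8 cells, and lymphocyte markers 20.9, 135.6 and 103 CPM in BM progenitors and 6.01, 5.82 and 5.52 CPM in BM monocytes against 0.262 CPM at most. Dissociation genes, mostly Fos, were 22.3, 236 and 190.5 CPM in BM progenitors, 50.8, 1793 and 1237 CPM in BM monocytes, 481, 53.5 and 6.11 CPM in ER-Hoxb8 progenitors and 75.4, 56.4 and 128 CPM at day 4. By the paper's methods, BM progenitors were enriched for lineage-negative cells and BM monocytes with a monocyte isolation kit. The part of the marked cells and genes in the member values was not tested.

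Between BM monocytes and BM progenitors limma called 0 of 8 members, against 13.8% of genes; at an unadjusted p under 0.05 there were 1 member, Smad4 (1.00), and 3657 genes, and the member median was 0.56 beside -0.09. Between day 4 and progenitor ER-Hoxb8 cells limma called 0 of 8 members and 0% of genes. There 1 member, Tgfbr1 (1.86, 95% interval 0.43 to 3.29, limma adjusted p = 0.497), and 1129 genes had an unadjusted p under 0.05, and the member median was 0.50 beside -0.01. Without ER-Hoxb8 progenitors replicate 2 the Tgfbr1 difference was 2.84 (limma adjusted p = 0.000549).

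ER-Hoxb8 progenitors differed from BM progenitors in Smad3 and Skil, 2 of 8 members against 25.5% of genes. Smad3 was 1.11, 2.40 and 1.59 in ER-Hoxb8 progenitors and 2.59, 4.09 and 3.71 in BM progenitors, and Skil was 5.59, 5.60 and 4.73 against 3.18, 4.28 and 3.55. Neither gene overlapped between the groups, Smad3 being lower (-1.77, SE 0.49, limma adjusted p = 0.0195) and Skil higher (1.64, SE 0.48, adjusted p = 0.0266). The member median was 0.34 beside -0.08. The calls changed when single libraries were left out. That of Smad3 was lost without BM progenitors replicates 2 or 3 or ER-Hoxb8 progenitors replicate 1, at differences of -1.64 to -1.45. That of Skil was lost without BM progenitors replicates 1 or 3 or ER-Hoxb8 progenitors replicates 1 or 2, at 1.39 to 1.58. With all libraries the differences were -1.77 and 1.64, so each kept its direction and most of its size. Without ER-Hoxb8 progenitors replicate 3, Tgfbr2 passed (2.53, limma adjusted p = 0.00298). Tgfb1, at 0.20 (limma adjusted p = 0.881), was 2.42 and called under quantile normalization (0.0191). Smad7 was 1.97, 2.11 and 1.99 in BM progenitors and -0.17, 0.93 and 0.98 in ER-Hoxb8 progenitors, without passing (-1.44, limma adjusted p = 0.129).

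Day 4 ER-Hoxb8 cells differed from BM monocytes in 3 of 8 members, against 17.5% of genes. Smad3 (1.63, 1.30 and 0.67 against 3.10, 2.55 and 3.17) was lower by -1.74 (SE 0.49, limma adjusted p = 0.0288), Tgfbr1 was higher by 2.09 (SE 0.65, adjusted p = 0.0475) and Skil (5.26, 5.64 and 7.22 against 4.47, 4.79 and 4.30) by 1.52 (SE 0.48, adjusted p = 0.0494). None of the 3 overlapped, and neither did Tgfbr2 and Smad4, which were not called. Tgfbr2 missed the threshold at 2.34 (limma adjusted p = 0.053) and passed under quantile normalization (2.35, 0.0388), with the replicate block (2.34, 0.0337) or without day 4 replicate 3 (2.86, 0.0402), and the member median was -0.05 beside -0.01. Leaving out any of the 6 libraries left at most 2 calls. The Tgfbr1 call was lost on leaving out any of them, at differences of 1.80 to 2.42. That of Skil was lost without any but day 4 replicate 1, at 0.93 without day 4 replicate 3 and at 1.41 to 1.72 otherwise. It was also lost with the replicate block (1.52, limma adjusted p = 0.0606) or on log2(CPM + 1) (1.49, 0.0502). That of Smad3 was lost without monocyte replicates 1 or 3 or day 4 replicates 2 or 3, at -1.79 to -1.47. Without the filter on low values neither Tgfbr1 (limma adjusted p = 0.0826) nor Skil (0.0806) passed.

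The shares of all genes called in this set, in the order used here, were 13.8%, 0%, 25.5% and 17.5%. Among the other pathway genes, monocytes over progenitors gave 2 higher of 9 latency genes, 1 higher of 8 receptors, 1 higher and 1 lower of 5 Smads and cofactors (Zfyve9, 4.33; Foxh1, at least 27.1-fold lower), 1 lower of 10 negative regulators and 2 higher of 9 targets (Id1, 2.99). Day 4 over progenitor ER-Hoxb8 cells gave 0 calls in each list. ER-Hoxb8 over BM progenitors gave 4 higher and 2 lower latency genes (Itgav, 3.31), 1 and 2 receptors (Bmpr1a, 5.95; Eng, -5.07), 0 and 2 Smads and cofactors (Smad1, -2.97), 3 and 1 negative regulators and 4 and 0 targets (Bhlhe40, 4.52). Day 4 cells over monocytes gave 1 and 2 latency genes (Itgb3, -5.55), 1 and 1 receptors (Bmpr1a, 6.47), 0 and 2 Smads and cofactors, 2 and 0 negative regulators and 3 and 0 targets (Bhlhe40, 3.97).

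For the guide-transduced cells the targeted gene is given first. Adar was 4.20, 3.42 and 4.28 log2 CPM in NTC progenitors and 4.36, 4.23 and 4.24 in progenitors labelled Adar1 KO with sgRNA 1. In macrophages it was 5.73, 5.86 and 5.67 with the NTC guide (replicate 2 in its own set) and 6.96, 7.15 and 7.01 with sgRNA 1, a difference of 1.34 (SE 0.21, limma adjusted p = 0.000971). With sgRNA 2 it was 4.35, 4.56 and 4.36 in progenitors and 6.99 to 7.03 in macrophages. The mRNA was therefore not lower than in NTC cells with sgRNA 1, while the sgRNA 2 set holds no NTC library to compare with. Since guide-made insertions and deletions need not remove a transcript, its level does not check the label. The paper itself reports editing at the cut site from sequencing traces (TIDE), and higher interferon-stimulated genes in Adar1 KO macrophages. Progenitor markers summed to 12069 to 25099 CPM in sgRNA 1 and NTC progenitors against 9.57 CPM at most in their macrophages, and macrophage markers to 211 to 326 against 5166 to 9369 CPM. In the sgRNA 2 set the progenitor sums were 2306 to 2833 against 7.15 CPM at most, and the macrophage sums 350 to 358 against 4598 to 4903 CPM. Dissociation genes, mostly Fos, moved with stage as well: 3.83, 39.5 and 48.01 CPM in NTC progenitors against 102.8 and 150.0 CPM in the 2 NTC macrophage libraries of that set, 4.73, 76.1 and 69.6 against 77.8, 141.6 and 179 CPM with sgRNA 1, and 9.49 to 12.9 against 113 to 129 CPM with sgRNA 2. Between the guides, macrophages labelled Adar1 KO with sgRNA 1 had 491 to 1420.0 CPM of monocyte markers against 280.0 and 229.6 CPM in NTC macrophages, and 59.7 to 90.3 CPM of border macrophage markers against 767.5 and 628 CPM. The part of these genes in the member values was not tested.

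Both receptors and Skil were higher in macrophages than in progenitors with each of the 3 guides. Tgfbr1 was 4.98, 4.42 and 4.51 in NTC progenitors and 7.57, 7.16 and 7.69 in NTC macrophages, 4.90, 4.68 and 4.52 against 8.03, 7.43 and 7.75 with sgRNA 1, and 5.07, 4.40 and 5.03 against 7.68, 7.82, 7.93, 7.83 and 7.62 with sgRNA 2. Tgfbr2 was 3.99, 3.61 and 3.97 against 6.62, 6.41 and 6.78, then 3.50, 3.78 and 3.31 against 6.52, 6.93 and 6.89, and 4.39, 4.34 and 4.65 against 7.40, 8.22, 7.84, 7.94 and 7.76. Skil was 5.13, 4.68 and 4.56 against 6.76, 6.42 and 6.91, then 5.02, 4.52 and 4.67 against 7.32, 6.64 and 6.82, and 4.22, 3.95 and 4.70 against 5.94, 5.92, 6.35, 6.27 and 6.25. Within each set all macrophage libraries lay above all progenitor libraries of the same guide for all 3 genes; the second NTC macrophage value of each gene (7.16, 6.41 and 6.42) is from the library in a set of its own and is not part of this.

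In NTC cells 5 of 8 members were called between the stages, against 71.4% of genes. Tgfbr1 was higher by 2.99 (SE 0.20, limma adjusted p = 1.18e-07), Tgfbr2 by 2.85 (SE 0.18, adjusted p = 8.03e-08), Skil by 2.04 (SE 0.23, adjusted p = 7.72e-06) and Smad3 by 1.30 (SE 0.33, adjusted p = 0.00413), while Smad2 was lower (-0.42, SE 0.13, adjusted p = 0.00984). None of the 5 overlapped, and neither did Smad4, which was not called. With sgRNA 1, 4 of 8 were called, against 70.8% of genes: Tgfbr1 by 3.03, Tgfbr2 by 3.25 and Skil by 2.19 (limma adjusted p = 3.65e-08, 9.27e-09 and 1.53e-06), and Tgfb1 at -1.59 (adjusted p = 0.01), where the groups meet at 1.16 log2 CPM. Member medians were 0.91 and 0.46, beside -0.07 and -0.05 over all genes. Smad4 passed in NTC cells without NTC progenitors replicate 2 (0.70, limma adjusted p = 0.0383) or with the replicate block (0.61, 0.0483), and Smad7 with sgRNA 1 without progenitor replicate 1 (0.75, 0.0401), without macrophage replicate 2 (0.79, 0.0308), with the replicate block (0.60, 0.0489) or on log2(CPM + 1) (0.43, 0.0433).

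With sgRNA 2, in a set of its own, 8 of 8 members were called, against 81.3% of genes. None overlapped between the stages, but the share of all genes without overlap is not given, so this does not set the members apart. Tgfbr2 was higher by 3.37, Tgfbr1 by 2.94, Skil by 1.86, Smad7 by 1.54, Smad3 by 1.52, Smad4 by 1.04 and Tgfb1 by 0.98, and Smad2 was lower at -0.58, with limma adjusted p from 9.62e-09 (Tgfbr2) to 0.00377 (Tgfb1). The member median was 1.53 beside -0.03. Tgfb1, at 1.57, 2.76 and 2.10 log2 CPM in progenitors and 2.87 to 3.44 in macrophages, had the opposite direction with sgRNA 1, and since the sets were normalized apart this was not tested. Smad7 was -1.10, -0.59 and -0.49 in these progenitors and 0.37 to 0.98 in the macrophages.

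Guide against guide, members did not pass in this set. Between progenitors labelled Adar1 KO (sgRNA 1) and NTC progenitors limma called 0 of 8 members, against 0.862% of genes, with 0 members and 738 genes at an unadjusted p under 0.05 and medians of 0.02 and -0.01. Between the macrophages limma also called 0 of 8, against 21.9% of genes, with 0 members and 4030 genes at an unadjusted p under 0.05 and medians of 0.08 and 0.04. The Tgfbr1 difference there was 0.11 (95% interval -0.33 to 0.55, limma adjusted p = 0.743). The test of whether the stage effect differed between the guides called 0 of 8 in limma, against 13.6% of genes; 1 member, Smad3 (-0.99, adjusted p = 0.168), and 3274 genes had an unadjusted p under 0.05, and the medians were 0.10 and 0.07. NTC macrophages entered these tests with 2 libraries.

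**Figure D4:**
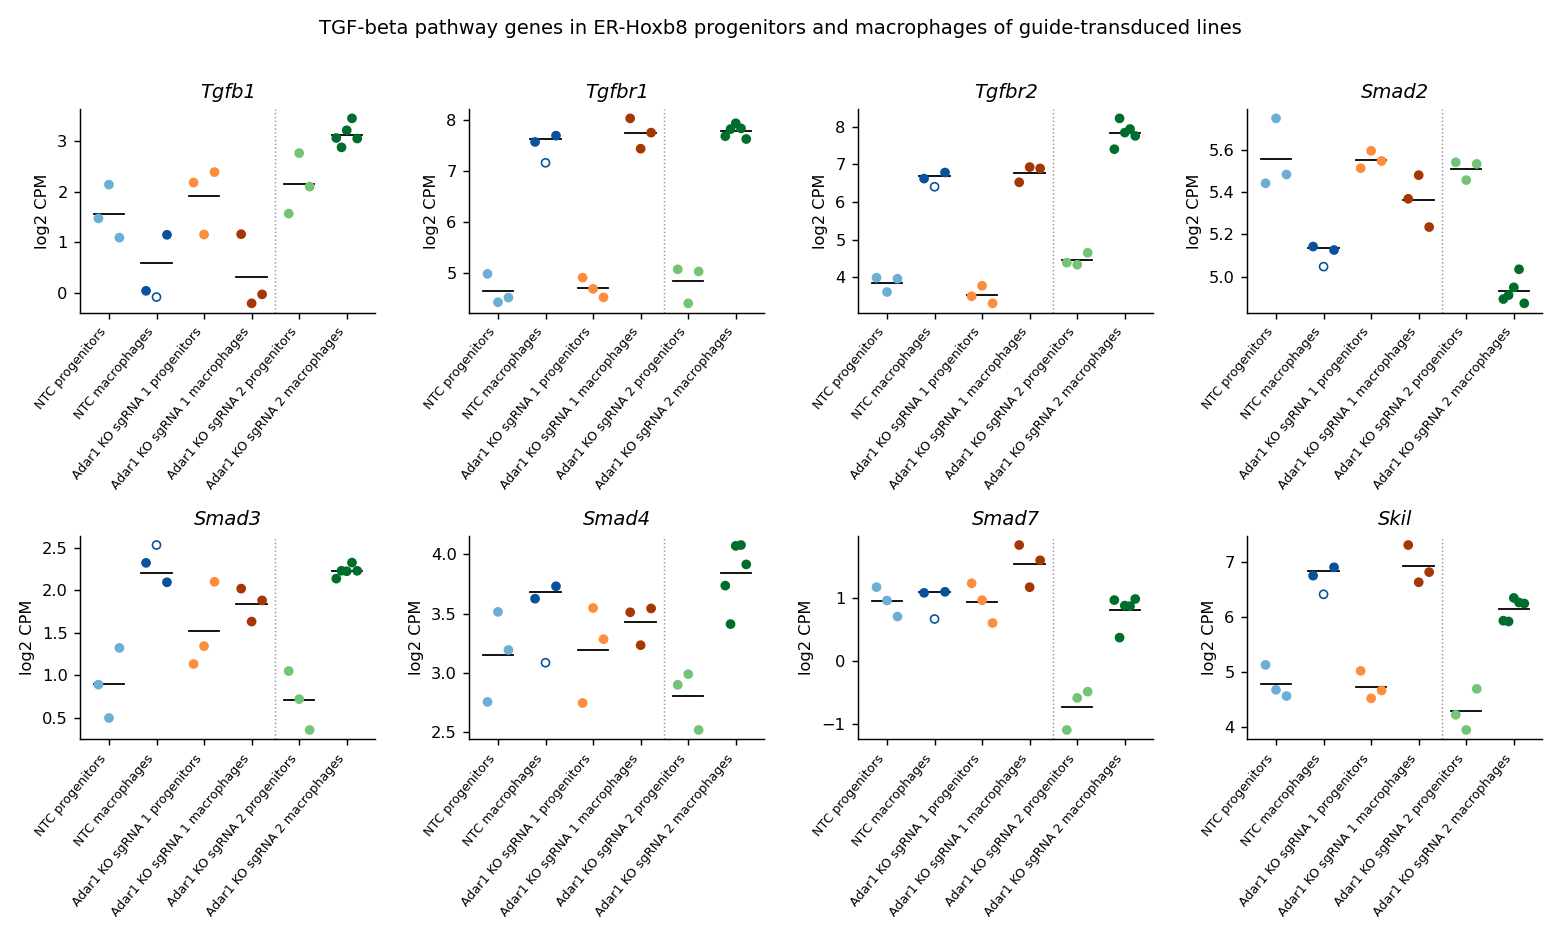
Level of the 8 members (log2 CPM) in progenitors and macrophages with the NTC guide, sgRNA 1 and sgRNA 2, 1 point per library with bars at the means; the open circle is NTC macrophages replicate 2, which belongs to another set and is left out of the mean, and the dotted line separates sets normalized apart. Tgfbr1 lies at 4.40 to 5.07 in progenitors and 7.16 to 8.03 in macrophages.

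Among the other pathway genes, calls between the stages went in both directions, beside 71.4% of all genes called in NTC cells, 70.8% with sgRNA 1 and 81.3% with sgRNA 2. NTC macrophages over progenitors gave 2 higher and 2 lower of 7 latency genes, 3 and 3 of 8 receptors (Acvrl1, 6.42; Acvr1b, 3.16), 0 and 1 of 2 Smads and cofactors (Smad5, -1.41), 7 and 3 of 11 negative regulators (Smurf1, 1.70; Bambi, -2.72) and 6 and 1 of 10 targets (Id2, 7.06; Tgfbi, at least 39.8-fold higher; Id1, -5.76). With sgRNA 1 the counts were 3 and 2, 3 and 3 (Acvrl1, 6.60), 0 and 1, 8 and 3, and 7 and 1 (Id2, 7.69; Tgfbi, 5.03; Id1, -3.19). With sgRNA 2 they were 3 and 2 of 7 (Thbs1, -5.82), 5 and 0 of 6 (Acvrl1, 4.32), 0 and 1 of 2, 8 and 3 of 11 (Bambi, -2.79) and 7 and 1 of 8 (Id2, 5.25; Id1, -4.81). Between macrophages labelled Adar1 KO and NTC macrophages, beside 21.9% of all genes, 2 receptors were lower (Tgfbr3, -2.06; Acvr1c, at least 2.12-fold), 1 cofactor was lower (Smad5, -0.54), and 2 targets were higher and 1 lower (Id1, 2.92; Id3, -4.26), with 0 calls among latency genes and negative regulators. Between the progenitors, beside 0.862% of all genes, the only call in the 5 lists was Cdkn1a (-1.13).

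In the baricitinib series Adar was 5.12, 4.94 and 4.69 log2 CPM in NTC macrophages and 7.42, 6.52 and 6.37 in those labelled Adar1 KO at 0 uM, and 3.70, 3.64 and 3.22 against 1.55, 2.15, 2.91 and 2.03 at 10 uM. The difference between the guides was 1.85, 1.18, 1.77, 1.01 and -1.36 at 0, 0.0006, 0.016, 0.4 and 10 uM (limma adjusted p = 0.0051, 0.0647, 0.00303, 0.136 and 0.0146), so the mRNA again does not check the label. The 1.01 at 0.4 uM rested on replicate 2 of the cells labelled Adar1 KO. Their other libraries, at 4.12 and 4.21, lay inside the NTC range of 3.92 to 4.50. Macrophage markers summed to 5185 to 5367 CPM at 0 uM and 2865 to 3349 CPM at 10 uM in cells labelled Adar1 KO, monocyte markers to 430.2 to 537 and 109 to 155 CPM, and dissociation genes (mostly Fos) to 176 to 215 and 60.95 to 84.4 CPM. In NTC cells the dissociation sums were 353 to 388 and 139 to 178 CPM and the monocyte sums 266 to 319 and 111 to 137 CPM. At 0.4 uM, replicate 2 of the cells labelled Adar1 KO stood apart, with monocyte markers at 1196 CPM against 273.5 and 246 CPM and Adar at 7.38 against 4.12 and 4.21 log2 CPM. Their part in the member values was not tested.

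Tgfbr1 separated the guides up to 0.4 uM, and Tgfbr2 did so at each dose. Tgfbr1 was 7.95, 7.61 and 7.70 log2 CPM in NTC macrophages at 0 uM and 8.52, 8.51 and 8.78 in those labelled Adar1 KO, which then measured 8.75, 8.58 and 8.15 at 0.0006 uM, 8.63, 8.52 and 8.38 at 0.016 uM, 8.02, 8.12 and 8.02 at 0.4 uM and 8.02, 7.63, 7.93 and 7.94 at 10 uM. NTC macrophages stayed between 7.43 and 7.95 over all 5 doses. Tgfbr2 was 8.18, 7.23 and 7.29 in NTC macrophages and 6.80, 7.00 and 6.98 in those labelled Adar1 KO at 0 uM, and 6.72, 6.79 and 6.76 against 5.62, 6.00, 6.01 and 5.63 at 10 uM. Up to 0.4 uM every library labelled Adar1 KO had more Tgfbr1 and less Tgfbr2 than every NTC library of its dose. The Tgfbr2 difference at 0.4 uM was not called (-0.23, limma adjusted p = 0.376), and at 10 uM it was -0.94.

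At 0 uM, 2 of 8 members were called between the guides, against 25.3% of genes: Tgfbr1 at 0.85 (SE 0.12, limma adjusted p = 9.15e-06) and Tgfbr2 at -0.64 (SE 0.17, adjusted p = 0.00689). The same contrast in the day 7 macrophages of the sgRNA 1 set, normalized apart, gave 0.11 for Tgfbr1 (95% interval -0.33 to 0.55) and 0.08 for Tgfbr2 (-0.32 to 0.48), neither called, and why the sets differ was not tested. Without NTC replicate 1, which had the highest Tgfbr2, that difference was -0.33 (limma adjusted p = 0.1). At 0.0006 uM 3 of 8 were called, against 29.0% of genes: Tgfbr1 (0.85, limma adjusted p = 6.79e-06), Smad3 (1.76, 0.0127) and Tgfbr2 (-0.54, 0.0176). There the Tgfbr2 call was lost without NTC replicate 1 (-0.40, limma adjusted p = 0.12) or replicates 1 (-0.50, 0.0631) or 3 (-0.50, 0.0646) of the cells labelled Adar1 KO, and that of Smad3 without NTC replicate 2 (1.20, 0.121) or replicate 2 of the cells labelled Adar1 KO (1.54, 0.0596). At 0.016 uM Tgfbr1 (0.94, limma adjusted p = 4.39e-07) and Tgfbr2 (-0.55, 0.00924) were called, 2 of 8 against 32.2% of genes, and Smad7 passed without replicate 3 of the cells labelled Adar1 KO (0.95, 0.0112).

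At 0.4 uM 3 of 8 members were called, against 13.5% of genes: Tgfbr1 (0.54, limma adjusted p = 0.00266), Smad3 (1.84, 0.0134, with overlap) and Skil (0.76, 0.0167). Smad3 (1.10, limma adjusted p = 0.185) and Skil (0.30, 0.259) were not called without replicate 2 of the cells labelled Adar1 KO, the library that stood apart, nor Skil without NTC replicate 1 (0.70, 0.0509), and under quantile normalization Tgfbr1 missed the threshold (0.32, 0.0785) and Smad7 passed (0.88, 0.0493). At 10 uM the 3 calls of 8, against 45.3% of genes, were Tgfbr2 (-0.94, limma adjusted p = 2.43e-05), Skil (0.66, 0.0122) and Smad2 (-0.34, 0.0162), while Tgfbr1 was at 0.06 (0.708). Smad2 was lost without NTC replicates 1 (-0.30, limma adjusted p = 0.0647) or 3 (-0.30, 0.0693) or replicate 1 of the cells labelled Adar1 KO (-0.24, 0.0829) and under quantile normalization (-0.27, 0.0507), and Skil without NTC replicate 3 (0.59, 0.0536). Member medians at the 5 doses were 0.14, 0.17, 0.27, 0.43 and 0.11, beside -0.02, 0.00, 0.00, 0.01 and 0.00 over all genes.

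Across doses in NTC macrophages, limma called 0 of 8 members at 0.0006 uM (0% of genes; 0 members and 345 genes at an unadjusted p under 0.05), 0 of 8 at 0.016 uM (0% of genes; 0 members and 434 genes) and 0 of 8 at 0.4 uM (0.00897% of genes; 1 member, Smad3 at -1.14, and 598 genes). At 10 uM 2 of 8 were called, against 13.8% of genes: Tgfbr2 at -0.80 (SE 0.17, limma adjusted p = 0.00257) and Skil at 1.04 (SE 0.23, adjusted p = 0.00303). Skil was 6.44, 6.52 and 6.38 log2 CPM at 0 uM and 7.62, 7.47 and 7.35 at 10 uM, and neither gene overlapped. Replicate 1 at 0 uM had the highest Tgfbr2 of its group, so the Tgfbr2 difference is smaller without it. On leaving out any single library, 2 members were called. The member median was 0.08 beside 0.00.

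In macrophages labelled Adar1 KO, limma called 0 of 8 members at 0.0006 uM, against 2.34% of genes (0 members and 1815 genes at an unadjusted p under 0.05), and 0 of 8 at 0.016 uM, against 6.21% (1 member, Smad2 at 0.28, and 2390 genes). Smad2 passed at 0.016 uM without replicate 3 of that dose (0.43, limma adjusted p = 0.0283). At 0.4 uM 3 of 8 were called, against 26.6% of genes: Tgfbr1 at -0.55 (SE 0.12, limma adjusted p = 0.00175), Smad2 at 0.43 (SE 0.12, adjusted p = 0.00969) and Skil at 0.85 (SE 0.23, adjusted p = 0.00607). Skil, at 6.43, 6.95 and 6.76 without drug and 7.16, 8.49 and 7.05 at 0.4 uM, was not called without replicate 2 of the 0.4 uM group (0.39, limma adjusted p = 0.0555) or replicate 1 of the 0 uM group (0.71, 0.0507).

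At 10 uM 4 of 8 members were called in these cells, against 65.8% of genes. Tgfbr2 was lower at -1.11 (SE 0.16, limma adjusted p = 8.72e-07), Tgfbr1 at -0.72 (SE 0.12, adjusted p = 4.55e-06) and Smad3 at -1.87 (SE 0.49, adjusted p = 0.00157), and Skil was higher by 1.43 (SE 0.21, adjusted p = 1.24e-06). Smad3 was 3.43, 2.66 and 1.58 log2 CPM at 0 uM and 0.02, 0.90, 0.98 and 0.83 at 10 uM, and Skil reached 8.12, 8.40, 8.07 and 7.97, with no overlap for any of the 4. How many of all genes lacked overlap here is not given. Smad4 passed at 10 uM under quantile normalization (0.66, limma adjusted p = 0.0462) or without replicate 4 of that dose (0.71, 0.0411). Member medians at 0.4 and 10 uM were 0.15 and 0.27, beside 0.03 and 0.05. The comparisons across doses share their 0 uM libraries, and those between guides share no library with each other.

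The test of whether the effect of 10 uM differed between the guides called Tgfbr1, 1 of 8 members against 39.5% of genes. Its drug effect was -0.79 log2 units lower in cells labelled Adar1 KO than in NTC cells (95% interval -1.14 to -0.44, limma adjusted p = 0.00061). Tgfbr2 (-0.31, limma adjusted p = 0.317), Skil (0.39, 0.335) and Smad3 (-0.86, 0.364) were not called, and the member median was -0.11 beside 0.06. Without NTC replicate 1 at 0 uM, Tgfbr2 also passed (-0.61, limma adjusted p = 0.0116).

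**Figure D5:**
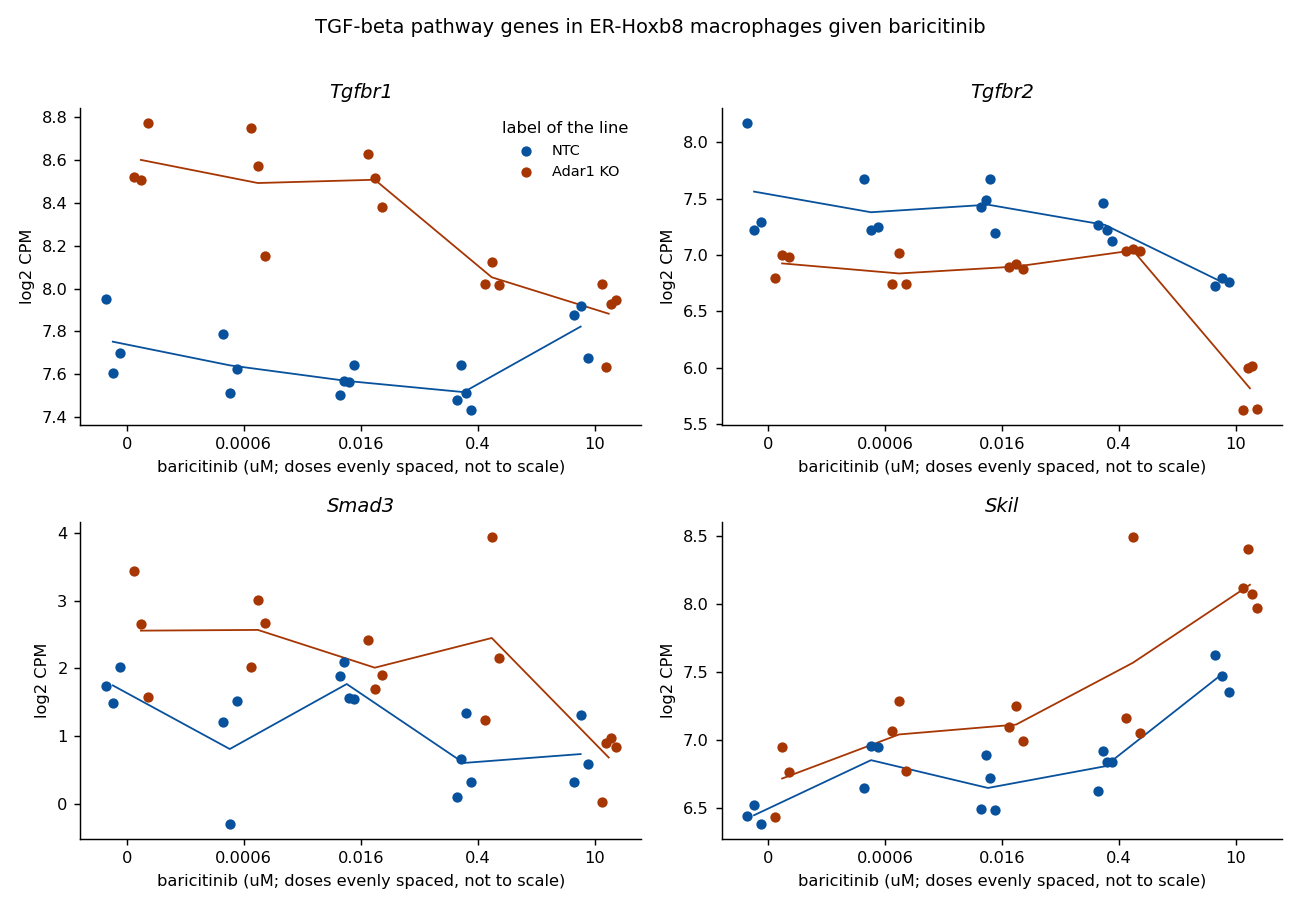
Level of Tgfbr1, Tgfbr2, Smad3 and Skil (log2 CPM) by baricitinib dose in NTC macrophages (blue) and macrophages labelled Adar1 KO (orange-brown), 1 point per library with lines joining the group means; doses are evenly spaced and not to scale. Tgfbr1 falls from 8.51 to 8.78 at 0 uM to 7.63 to 8.02 at 10 uM in cells labelled Adar1 KO, and Skil is at 7.97 to 8.40 there at 10 uM.

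Among the other pathway genes, beside 25.3% of all genes, cells labelled Adar1 KO differed from NTC cells at 0 uM in 2 higher of 7 latency genes (Thbs1, 4.96), 1 higher and 3 lower of 8 receptors (Eng, 2.71; Acvr1c, at least 5.31-fold lower), 0 of 3 Smads and cofactors, 1 and 1 of 10 negative regulators and 3 and 1 of 10 targets (Tgfbi, 1.92; Id3, -2.78). In NTC cells, beside 13.8% of all genes, 10 uM gave 1 higher latency gene (Itgav, 0.94), 2 lower receptors (Acvr1b, -1.42), 0 Smads and cofactors, 2 higher and 1 lower negative regulators and 4 higher and 1 lower targets (Tgfbi, 2.58; Id3, 1.89). In cells labelled Adar1 KO, beside 26.6% of all genes, 0.4 uM gave 2 lower latency genes, 1 higher and 2 lower receptors, 0 Smads and cofactors, 1 higher negative regulator and 4 higher and 1 lower targets. There, beside 65.8% of all genes, 10 uM gave 1 higher and 4 lower latency genes (Thbs1, -3.77; Ltbp2, at least 5.6-fold lower), 3 and 3 receptors (Acvr1b, -3.21), 1 higher cofactor, 5 and 3 negative regulators (Strap, 2.04) and 3 and 4 targets (Cdkn1a, 2.24; Tgfbi, 2.03; Bhlhe40, -2.67). The interaction with 10 uM, beside 39.5% of all genes, called 3 lower latency genes (Thbs1, -3.14), 1 higher and 2 lower receptors (Acvr1b, -1.79), 1 higher cofactor, 3 higher negative regulators (Ppm1a, 1.80) and 1 higher and 1 lower target.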

How the data were processed

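The deposited values are log2 CPM: the authors quantified reads with kallisto 0.46.0, summed them by gene and scaled libraries by TMM in edgeR. CPM was recovered as 2 to the power of a value minus 2 to the power of the lowest value of its set. Rows with a gene symbol were kept as named genes; 1 row without a symbol held 0.00226 to 0.0584% of a library and was left out. Genes above 1 CPM in at least 6 libraries (macrophages, MLCs and microglia), 2 (sgRNA 1 and NTC) or 3 (the rest) were tested with limma 3.58.1 in R 4.3.3 (package data.table, version 1.17.8) on group means, with a trended prior and Benjamini-Hochberg adjustment; 12518, 12056, 11258, 10698 and 11152 genes passed in the brain, marrow, sgRNA 1, sgRNA 2 and baricitinib sets. Marker sums, correlations, promoter searches and figures used Python 3.11.15 with numpy 2.4.6 and pandas 2.3.3. Among comparisons with 3 or more numbered pairs, correlations between equally numbered replicates all passed 0.1 only for sgRNA 1 against NTC progenitors (lowest r 0.156) and ER-Hoxb8 day 4 cells against progenitors (lowest r 0.226), and a replicate block changed the count of called members in neither (0 and 0). Of the marker and target lists, 2 genes are not reported here and were left out of sums and counts. Members and lists were chosen with earlier results of these data known.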

Additional observations from a re-analysis of the deposited data

Results flagged for a closer look

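Within each member and each group of 4 or more libraries, the library farthest from its group was compared with the rest by Dixon's ratio; chance alone marks about 1 in 20 groups, and here 7 of 56 were marked. They were Tgfb1 in ER-Hoxb8 MLCs replicate 4 (-3.6156 log2 CPM), Tgfbr1 in ER-Hoxb8 MLCs replicate 6 (6.6925), Smad2 in microglia replicate 8 (5.4567), Smad3 in ER-Hoxb8 MLCs replicate 4 (-2.5741), Smad3 in macrophages labelled Adar1 KO at 10 uM baricitinib replicate 1 (0.0232), Smad4 in microglia replicate 8 (3.6874) and Smad7 in sgRNA 2 macrophages replicate 2 (0.3659), each the lowest of its group. In addition, the effect of 10 uM baricitinib on Tgfbr1 differed between the guides by -0.7898 log2 units.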

How the results depend on the processing

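Over the alternatives other than a limit on the fold change, 80 of 3503 member values weakened past the threshold and 47 strengthened. A direction was read only where a value was called in the main or the alternative fit, and 0 reversed by that rule. Changes of sign among values called in neither fit were not counted. Without the filter on low values, ER-Hoxb8 over BMD MLCs gave 1 call and day 4 cells over BM monocytes 1. With a replicate block, BMD MLCs over microglia gave 1. ER-Hoxb8 over BMD MLCs gave 0 after median centring, 0 with only GFPHox libraries and 0 without the 3 libraries far from their groups, a choice made after seeing the data that gave 4 for BMD MLCs over microglia. Without those 3 libraries calls over all genes rose in both comparisons, from 1907 to 2949 in the former. For the other settings named so far calls over all genes are not given, so these counts do not compare members with other genes. Requiring a log2 fold change of 2 or more left these member calls, with those of all genes in brackets: 1 in BMD MLCs over BMD macrophages (1995), 0 in BMD MLCs over microglia (1338), 1 in ER-Hoxb8 MLCs over microglia (2040), 0 in ER-Hoxb8 over BMD MLCs (821), 0 in ER-Hoxb8 over BM progenitors (1843), 1 in day 4 cells over monocytes (1409), and 3 in NTC (2674) and 2 in sgRNA 2 macrophages over progenitors (2064). There were 0 between the guides at 0, 0.0006, 0.016, 0.4 and 10 uM (432, 558, 571, 199 and 350), 0 for 10 uM in NTC (93), 0 for 0.4 (215) and 0 for 10 uM (1635) in cells labelled Adar1 KO and 0 in the interaction with 10 uM (793). With single libraries left out, there were 1 to 2 calls in BMD MLCs over microglia, 0 to 2 in ER-Hoxb8 over BMD MLCs, 0 to 3 in ER-Hoxb8 over BM progenitors, 0 to 2 in day 4 cells over monocytes, 0 to 1 in day 4 cells over ER-Hoxb8 progenitors, 1 to 2, 1 to 3 and 1 to 3 between the guides at 0, 0.4 and 10 uM, 0 to 1 for 0.016 uM in cells labelled Adar1 KO and 1 to 2 in the interaction with 10 uM. Calls over all genes in these fits are not given, so the ranges do not compare members with other genes. Median centring moved the median of all genes from -0.06 to 0.16 in microglia over BMD macrophages, from -0.06 to 0.12 over ER-Hoxb8 macrophages, from -0.15 to 0.05 in ER-Hoxb8 MLCs over macrophages, from 0.06 to -0.08 in BMD MLCs over microglia and from -0.22 to -0.06 in ER-Hoxb8 over BMD MLCs, where the share of called genes that were higher went from 45.6 to 56.5%. Quantile normalization moved that share from 44.4 to 55.0% in ER-Hoxb8 over BM progenitors, 40.0 to 52.5% in day 4 cells over monocytes, 65.6 to 48.7% between the macrophages of sgRNA 1 and NTC, 71.6 to 56.7% in their interaction with stage and 57.1 to 46.3% between the guides at 0.4 uM. Among all genes, calls went from 245 to 379 in ER-Hoxb8 over BMD macrophages without the filter, from 1661 to 2707 in BM monocytes over progenitors with quantile normalization, and without the 3 libraries from 1907 to 2949 in ER-Hoxb8 over BMD MLCs and from 410 to 1198 in the interaction with brain (846 with only GFPHox libraries). The cause of these shifts was not tested. Depth limits what can be said of Tgfb1, Smad3 and Smad7 in libraries where they lie under 1 CPM.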
